A study of Saccharomyces cerevisiae with 15 samples.

Results

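The mitochondrial ribosome of yeast translates the few proteins that the mitochondrial genome encodes, most of them core subunits of the respiratory chain and of ATP synthase. Its protein subunits are nearly all encoded in the nucleus, made in the cytosol and imported, while its RNAs are transcribed inside the organelle. In yeast the nuclear genes of these proteins are known to be expressed at higher levels in respiring than in fermenting cells, and their messenger RNAs include many targets of the RNA-binding protein Puf3.

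The genes described here are those whose array probe set carries a single symbol made of MRPL, MRPS, RSM or MRP followed by a number. The rule uses names alone and no measured value. It found 68 probe sets for 67 genes, since MRPL44 has a pair of probe sets, out of 9275 probe sets other than controls, and all 68 passed the filter on low signal that left 6956 for testing. A gene table of RefSeq gives 66 of the probe sets a place in a subunit, 39 in the large one (38 genes) and 27 in the small one. RSM22, a methyltransferase-like protein, and MRP8, whose product has a doubtful place in the mitochondrial ribosome, have none there. The structural names used below mark a protein found in all ribosomes with u, one shared with bacterial ribosomes only with b, and one known from mitochondrial ribosomes with m (27, 14 and 25 probe sets).

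All samples came from a Saccharomyces cerevisiae strain deleted for PMI40, derived from CEN.PK113-7A. PMI40 encodes phosphomannose isomerase, which makes mannose 6-phosphate from fructose 6-phosphate, so the strain takes its mannose from the medium. It was grown in aerated batches on mineral medium with 15 g/L glucose and an initial 0.75, 1, 1.5, 3 or 5 g/L mannose, and total RNA was taken at 6 h. Each of the 5 concentrations had 3 arrays, and every group lacks PMI40, with no parent strain among the samples. The comparison asks how the transcripts changed with the initial amount of mannose. Whether each group's 3 arrays represent separate cultures is not stated in the labels, so a p-value here reflects the spread between arrays and nothing wider. In such bulk RNA a change in the number of cells of 1 kind and a change in RNA per cell cannot be told apart.

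Between arrays of the same concentration, signals over all tested probe sets had correlations of 0.956 to 0.982. Their median signal over all probe sets ranged from 20.1 to 27.1, lowest on the 0.75 g/L arrays. The ratio of 3' to 5' signal was 1.37 to 2.36 for ACT1 and 2.81 to 6.90 for SPT15. The SPT15 ratio was 4.44, 6.10 and 6.90 on the 5 g/L arrays and 3.98, 3.82 and 3.69 on the 3 g/L arrays. Both groups had low signals of the mitochondrial ribosomal protein genes. On the arrays with higher signals it was 5.26, 4.75 and 4.19 at 0.75 g/L, 4.16, 2.81 and 4.03 at 1 g/L, then 4.01, 3.89 and 4.38 at 1.5 g/L. Every 5 g/L array thus had a higher SPT15 ratio than every 1 g/L array. The part of RNA quality in the results was not tested. The array records place the arrays in 4 fluidics runs, inferred from station and hybridisation time. Run A held the 0.75 g/L arrays and 3 g/L replicate 1, run B the other 3 g/L arrays and 5 g/L replicates 1 and 2, run C the 1.5 g/L arrays and 5 g/L replicate 3, and run D the 1 g/L arrays. The fluidics records were incomplete for all run A arrays and for 5 g/L replicate 2. Differences within runs are therefore also given where a run held more than 1 concentration.

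Mitochondrial ribosomal protein transcripts fell with increasing mannose, and those of both subunits fell together. The median signal of the 68 probe sets averaged 117.5 at 0.75 g/L, 113.8 at 1 g/L, 100.6 at 1.5 g/L, 83.0 at 3 g/L and finally 79.8 at 5 g/L. Expressed as log2 signal relative to each probe set's mean over the arrays, the median was 0.23 ± 0.01 (SD, n = 3) at 0.75 g/L, 0.29 ± 0.08 at 1 g/L, 0.08 ± 0.07 at 1.5 g/L, -0.27 ± 0.18 at 3 g/L, ending at -0.30 ± 0.04 with 5 g/L. The lowest and highest concentrations did not overlap: all arrays at 3 and 5 g/L lay below all arrays at 0.75, 1 and 1.5 g/L. The median over all tested probe sets stayed between -0.07 and 0.07.

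The array with the lowest value was 3 g/L replicate 1, at -0.48, against -0.17 and -0.16 on the other arrays of its group. It was the only 3 g/L array in run A and the only one of its group with an incomplete fluidics record. The 5 g/L arrays were close to each other, at -0.28, -0.28 and -0.35. The large subunit went from 0.27 at 0.75 g/L to -0.32 at 5 g/L and the small subunit from 0.19 to -0.31.

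**Figure D1:**
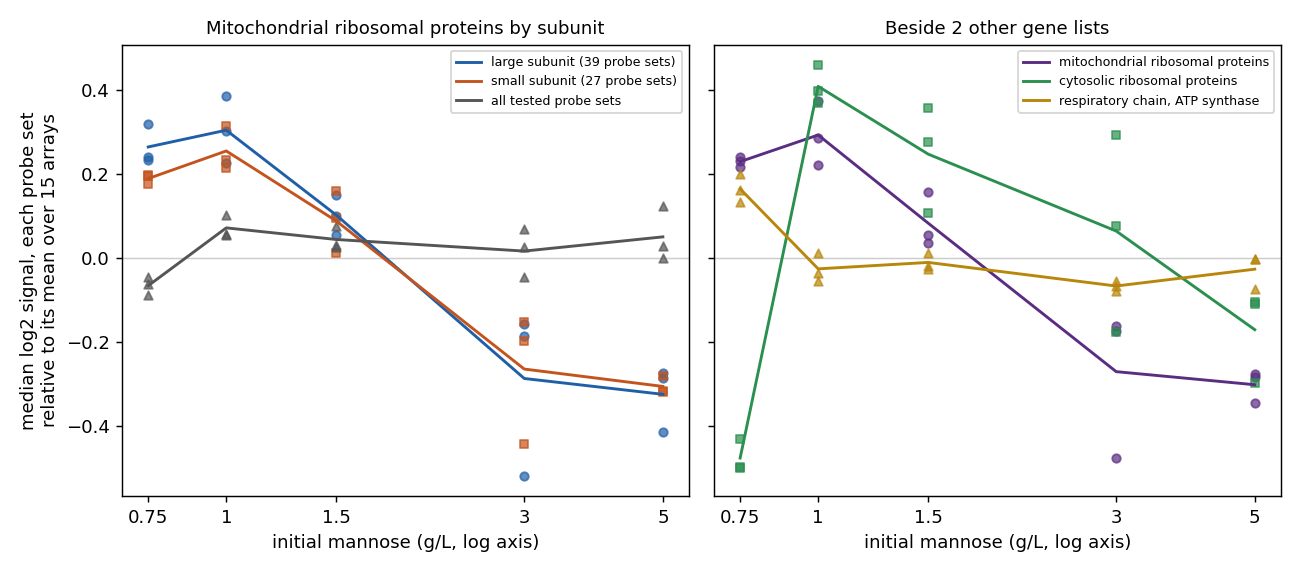
Median log2 signal of gene lists, each probe set relative to its mean over the 15 arrays, against initial mannose in g/L on a log axis; points are arrays and lines join the means of the 3 arrays of a concentration. In the left panel both subunits lie above 0 up to 1.5 g/L and below 0 at 3 and 5 g/L, while all tested probe sets stay within -0.09 and 0.12, and the right panel sets the members beside cytosolic ribosomal proteins and the respiratory chain.

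The trend was measured as the slope of log2 signal per doubling of initial mannose, fitted with limma to all arrays and adjusted over all 6956 tested probe sets. Of the 68 probe sets 45 fell at an adjusted p under 0.05 and 0 rose, beside 9.34% of all tested probe sets that fell and 14.3% that rose. At an unadjusted p under 0.05, 56 of the 68 fell and 0 rose, beside 1025 and 1530 of all 6956 tested. The fitted slope was below 0 for all 68, beside 45.3% of all tested. Its median was -0.23 and its range from -0.56 to -0.03, against a median of 0.02 over all tested probe sets. In the large subunit 28 of 39 fell (median slope -0.26) and in the small subunit 17 of 27 (median -0.22). Of the proteins found in all ribosomes 17 of 27 fell, of those shared with bacteria 9 of 14 and of those known from mitochondrial ribosomes 19 of 25, with medians of -0.23, -0.23 and -0.25. Differences between these classes were not tested.

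The trend did not rest on the 0.75 g/L arrays alone, since without them 42 of the 68 fell and 65 had slopes below 0, beside 12.6% of all tested probe sets that fell. Without 5 g/L replicate 3, 29 fell (7.35% of all tested) and the slopes of all 68 were still below 0. With the fluidics run as a block 30 fell, beside 5.36% of all tested, and the median slope was -0.31. Without the arrays with incomplete fluidics records 40 fell, beside 12.7% of all tested, and 64 had slopes below 0. Another scaling of the arrays moved the balance over all probe sets: 650 fell and 996 rose in the deposited values, 886 and 774 after quantile normalization, and 1143 and 592 after scaling to a common median. Under these 2 scalings 53 and 56 of the 68 fell and 0 rose.

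**Figure D2:**
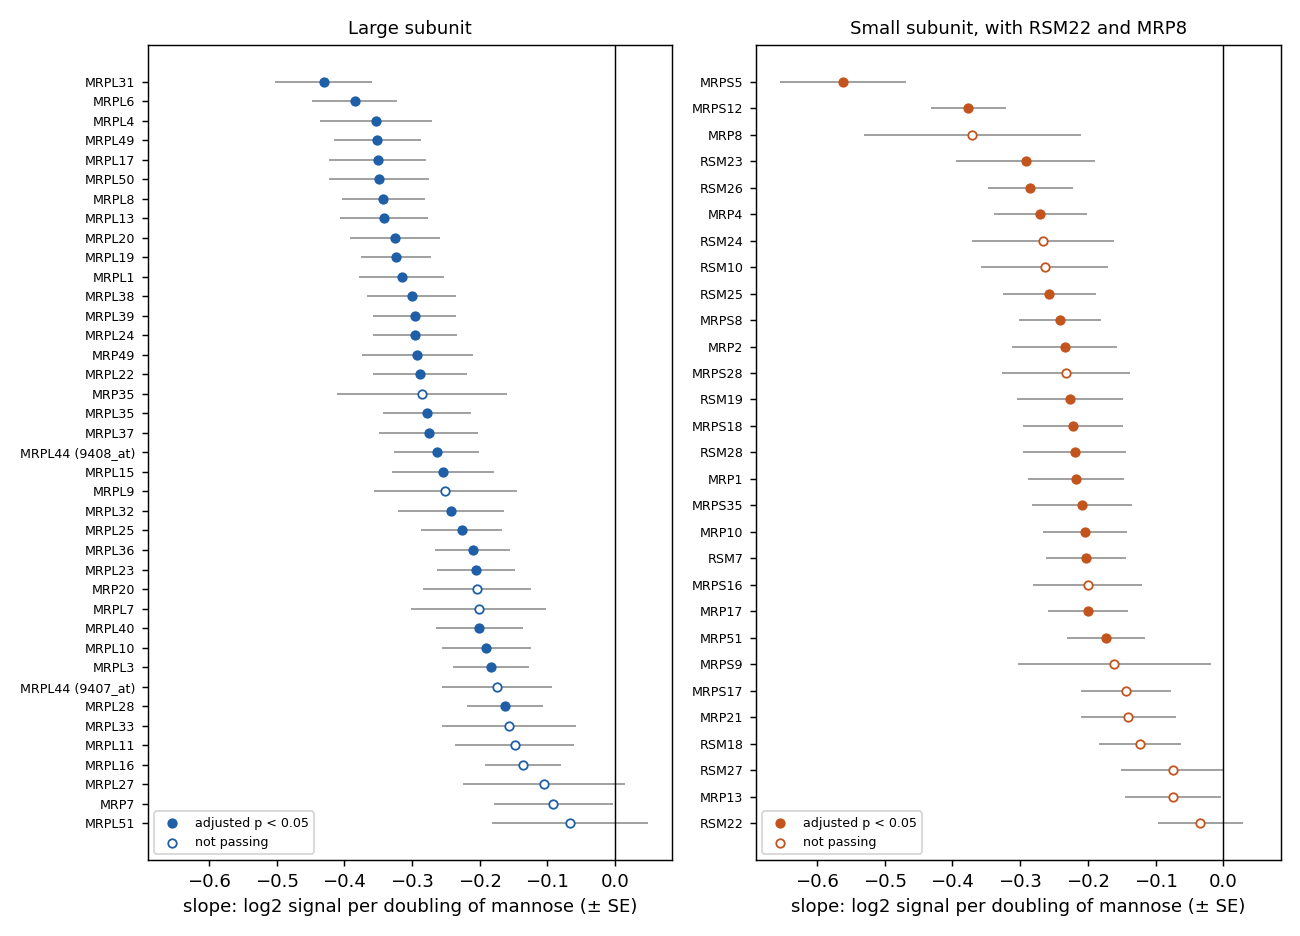
Slope of log2 signal per doubling of initial mannose with its standard error for each of the 68 probe sets, large subunit on the left, small subunit with RSM22 and MRP8 on the right. Filled points passed an adjusted p of 0.05; all points lie left of 0, from -0.56 for MRPS5 to -0.03 for RSM22.

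Among proteins of the small subunit, MRPS5 (uS5m, YBR251W), the counterpart of bacterial S5, had the steepest slope. Its signal was 34.0, 28.4 and 32.3 at 0.75 g/L, against 33.9, 39.7 and 31.1 at 1 g/L. It was 21.4, 22.3 and 24.0 at 1.5 g/L, then 13.5, 18.6 and 17.5 at 3 g/L, ending with 18.5, 14.1 and 6.3 at 5 g/L. All arrays at 3 and 5 g/L lay below all others, although 1 of each of these groups was at or below the background of 13.5, a level set from 13 control probe sets for mouse and antisense sequences. It fell by 0.56 ± 0.09 log2 per doubling (SE; adjusted p = 0.00047), and from 1 to 5 g/L by 1.56 ± 0.29 log2 (adjusted p = 0.00168). The size of this fall rests in part on 5 g/L replicate 3, which was below background, and without that array it was -1.10 ± 0.19.

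MRPS12 (uS12m, YNR036C), the counterpart of the bacterial protein at the decoding centre, gave signals far above background on every array. Its signal was 530.6, 517.8 and 480.3 at 0.75 g/L, against 428.8, 410.6 and 327.6 at 1 g/L. It was 373.6, 415.6 and 409.8 at 1.5 g/L, then 255.1, 289.0 and 248.9 at 3 g/L, ending with 219.1, 264.4 and 252.3 at 5 g/L. The arrays formed a high level at 0.75 g/L, a middle level at 1 and 1.5 g/L and a low level at 3 and 5 g/L, with no overlap between the levels. The slope was -0.38 ± 0.06 (adjusted p = 0.00017). Among the members, only MRPS12 passed in the trend, in 1 against 0.75 g/L, in 3 against 1.5 g/L and in 5 against 1 g/L. RSM7 (uS7m, YJR113C), the counterpart of the bacterial protein that nucleates the head of the small subunit, had means of 692.7 ± 67.5 (SD, n = 3) on the 0.75 g/L arrays and 494.1 ± 66.1 on the 5 g/L arrays, with a slope of -0.20 ± 0.06 (adjusted p = 0.02). Its arrays at 1 g/L ranged from 520.5 to 862.7 and overlapped those at 5 g/L.

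RSM23 (mS29, YGL129C), a GTP-binding protein of the small subunit related to human DAP3, gave weak signals throughout. They were 20.0, 21.1 and 16.3 at 1 g/L, then 4.8, 12.7 and 11.3 at 5 g/L, where all arrays were at or below background. In limma RSM23 fell from 1 to 5 g/L by 1.11 ± 0.29 log2 (adjusted p = 0.0136), a size that rests on values below background. With the 5 g/L signals raised to background, its signal at 1 g/L was 1.41-fold higher, and this bound was not tested. Its slope of -0.29 ± 0.10 (adjusted p = 0.0487) passed narrowly and did not pass in 16 of 25 other settings. MRP13 (mS44) had signals of 14.3 to 25.2 over all arrays, RSM22 12.4 to 20.6, and MRP35 (bL35m) 4.5 to 23.5, of which only 14.8 and 23.5 were above background. Their slopes were -0.07 ± 0.07, -0.03 ± 0.06 and -0.29 ± 0.12, and none of these 3 passed (adjusted p = 0.481, 0.743 and 0.107).

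In the large subunit, MRPL31 (mL60, YKL138C), a protein known from the mitochondrial ribosome, went from 140.6, 116.0 and 118.4 at 0.75 g/L, 121.3, 132.5 and 97.1 at 1 g/L, then 97.3, 116.0 and 118.8 at 1.5 g/L to 64.6, 57.4 and 56.7 at 3 g/L, then 56.0, 83.1 and 52.6 at 5 g/L. The arrays up to 1.5 g/L shared 1 level and those at 3 and 5 g/L a lower one. Its slope was -0.43 ± 0.07 (adjusted p = 0.000465). MRPL6 (uL6m, YHR147C), the counterpart of bacterial L6, had a mean signal of 114.5 ± 18.7 (SD, n = 3) at 0.75 g/L, 81.1 ± 7.72 at 1 g/L, 79.4 ± 7.07 at 1.5 g/L, 59.2 ± 8.19 at 3 g/L, ending at 51.3 ± 9.28 with 5 g/L. It fell by 0.38 ± 0.06 per doubling (adjusted p = 0.000432).

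MRPL4 (uL29m, YLR439W), the counterpart of bacterial L29 beside the exit of the peptide tunnel, fell by 0.35 ± 0.08 per doubling (adjusted p = 0.00683). Its signals at 3 g/L were 97.0, 182.3 and 212.9, so that 1 array of that group overlapped the 1.5 g/L arrays (193.4, 248.8 and 183.9). The lowest of them was again 3 g/L replicate 1.

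MRPL49 (bL21m, YJL096W), the counterpart of bacterial L21, was 128.1, 120.1 and 157.3 at 0.75 g/L, against 141.6, 160.0 and 136.0 at 1 g/L. It was 149.2, 123.1 and 152.6 at 1.5 g/L, then 80.7, 103.0 and 99.3 at 3 g/L, ending with 83.8, 64.1 and 77.1 at 5 g/L. No array at 3 or 5 g/L reached the arrays at the lower concentrations. It fell by 0.35 ± 0.06 per doubling (adjusted p = 0.00108) and from 1 to 5 g/L by 0.97 ± 0.17 (1.95-fold, adjusted p = 0.000884).

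MRPL8 (bL17m, YJL063C), the counterpart of bacterial L17, was the gene most like the others. Its log2 signal correlated at 0.96 over the 15 arrays with the median of the other members. MRPL39 (bL33m) followed at 0.94 and MRPL20 (mL58) at 0.93, where the median correlation over members was 0.77. These correlations are descriptive and share the arrays and their scaling. MRPL8 gave 508.3, 557.4 and 461.3 at 1 g/L, then 267.6, 256.6 and 274.8 at 5 g/L, a fall by 0.93 ± 0.17 (adjusted p = 0.00159). MRPL20 fell over this range by 0.91 ± 0.18 (adjusted p = 0.00258).

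MRPL19 (uL11m, YNL185C), the counterpart of bacterial L11 at the base of the stalk where elongation factors bind, had closely spaced signals at 5 g/L. They were 50.7, 51.9 and 50.8, against 86.7, 108.4 and 93.2 at 1 g/L, and the fall was 0.90 ± 0.14 (adjusted p = 0.000455). The groups did not overlap.

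**Figure D3:**
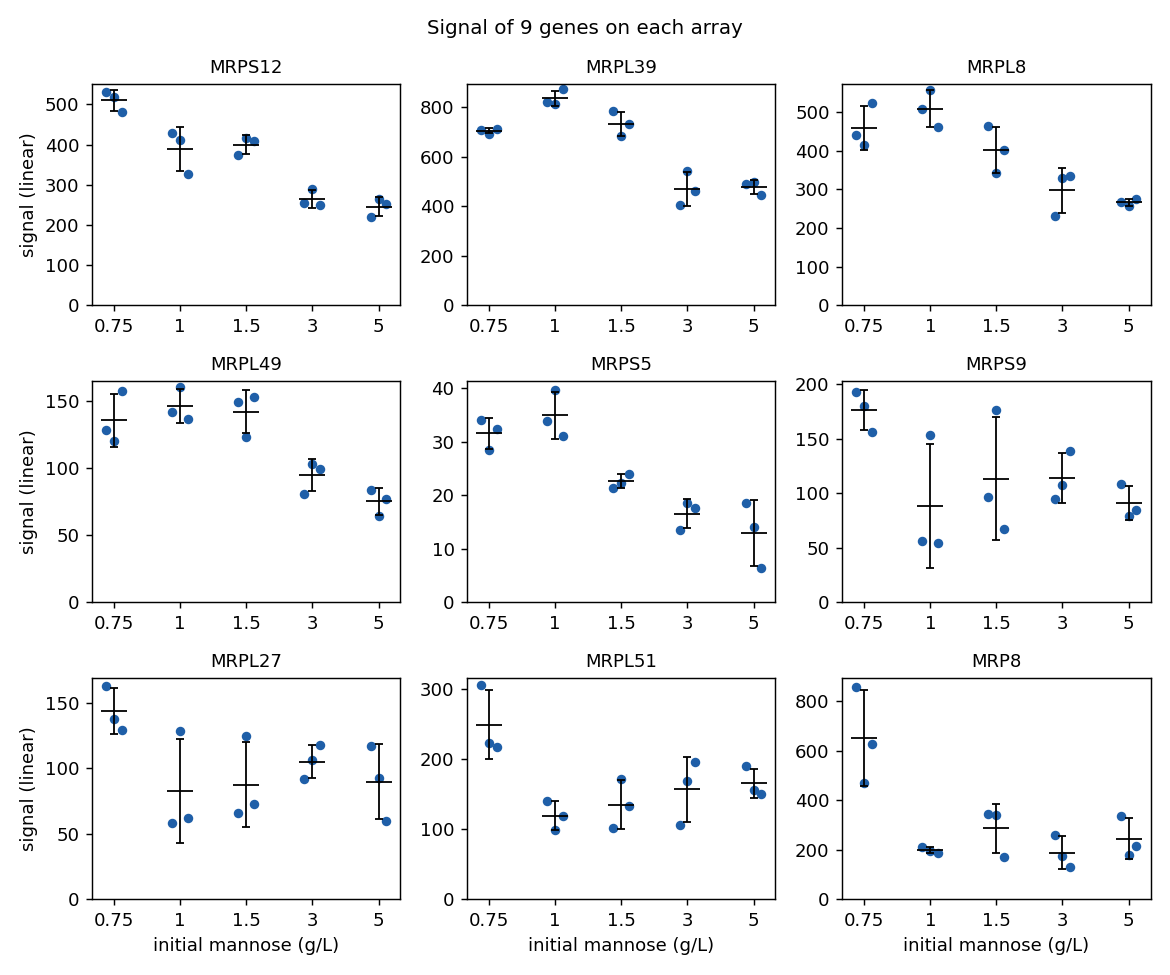
Linear signal of 9 genes on each array against initial mannose in g/L; points are arrays, horizontal lines are means and bars standard deviations of 3 arrays. MRPS12, MRPL39, MRPL8, MRPL49 and MRPS5 are lower at 3 and 5 g/L than at 0.75 to 1.5 g/L, whereas MRPS9, MRPL27, MRPL51 and MRP8 are highest at 0.75 g/L.

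Between 1 and 5 g/L, 32 of the 68 probe sets fell and 0 rose, beside 10.4% of all tested probe sets that fell and 13.5% that rose. At an unadjusted p under 0.05 the members' counts were 50 and 0, beside 1217 and 1289 of all 6956 tested. The difference was below 0 for 64 of 68, beside 51.8% of all tested, with a median of -0.58 against -0.02 over all tested probe sets. The arrays at 5 g/L all lay below those at 1 g/L for 44 of the 68 (19.7% of all tested). For 17 of them all arrays at 3 and 5 g/L lay below all arrays at the lower concentrations (2.79% of all tested). In the large subunit 22 of 39 fell and in the small subunit 10 of 27, and the difference between the subunits was not tested. Without 5 g/L replicate 3, 21 of the 68 fell over this range (6.97% of all tested), with a median of -0.52. No fluidics run held both 1 and 5 g/L arrays, so mannose and run cannot be told apart in this contrast.

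For 4 of the 68 the difference from 1 to 5 g/L was above 0. MRPL51 (mL43), MRP8, MRPS9 (uS9m) and MRPL27 (mL41) had differences of 0.48 ± 0.25, 0.25 ± 0.33, 0.21 ± 0.38 and 0.17 ± 0.32, and none passed (adjusted p = 0.189, 0.627, 0.738 and 0.757). MRPL44 (mL53) was measured by a pair of probe sets. On one, with signals of 16.4 to 32.2, it fell by 0.26 ± 0.06 per doubling (adjusted p = 0.00727). On the other, with signals of 114.7 to 246.0, the slope was -0.17 ± 0.08 (adjusted p = 0.132), and the slopes lay within their errors of each other. From 1 to 5 g/L the former had -0.63 ± 0.18 (adjusted p = 0.0212) and the latter -0.01 ± 0.22 (adjusted p = 0.984), and the difference between them was not tested. The 1 g/L arrays ran from 27.7 to 29.0 on the former and from 120.3 to 230.9 on the latter. MRPL44 was looked at because it has more than 1 probe set.

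Between neighbouring concentrations, compared after the data had been seen, the members' median difference was largest in size from 1.5 to 3 g/L. There it was -0.36 and 5 of 68 fell and 0 rose, beside 1.54% of all tested that fell and 2.56% that rose. These were MRPL31, MRPS12, MRPL13, MRPL39 and MRPL37. At an unadjusted p under 0.05 the members' counts were 26 and 2, beside 697 and 654 of all 6956 tested. All 1.5 g/L arrays were in run C and all 3 g/L arrays in runs A and B. For this step mannose and run cannot be told apart. MRPL39 (bL33m, YML009C), the counterpart of bacterial L33, dropped from 782.9, 685.2 and 732.4 to 406.5, 543.6 and 461.2, without overlap (-0.65 ± 0.14, adjusted p = 0.0183). MRPL13 (mL50) went from 161 ± 32.9 to 96.2 ± 6.87 and MRPL37 (mL54) from 279 ± 43.8 to 170 ± 35.9, both by -0.73 ± 0.18 (adjusted p = 0.0356 and 0.0394).

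From 1 to 1.5 g/L the median difference was -0.18 and from 3 to 5 g/L it was -0.02. In limma 0 of 68 passed in either. Of all tested probe sets 0.0144% fell and 0.388% rose in the former, and 0.115% fell and 0.877% rose in the latter. At an unadjusted p under 0.05, 8 fell and 0 rose in the former, beside 305 and 464 of all 6956 tested. In the latter 2 fell and 0 rose, beside 230 and 420 of all tested. These steps share groups with each other and differ in size: 1.5 to 3 g/L is a doubling, the others less. The 1 and 1.5 g/L arrays were also in separate runs, D and C.

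Within runs A and C most members were lower at the higher concentration as well, while in run B the median difference was small. In run A the 3 g/L array was below the mean of the 0.75 g/L arrays in 65 of 68 probe sets, beside 46.2% of all tested. The median was -0.75, with 0.08 over all tested. In run C the 5 g/L array was below the 1.5 g/L mean in 63 of 68, beside 53.2% of all tested. The median was -0.45, with -0.04 over all tested. The values of runs A and C each rest on 1 array at the higher concentration, and all arrays of run A had incomplete fluidics records. In run B, with 2 arrays on each side, 5 g/L was below 3 g/L in 45 of 68, beside 46.5% of all tested. The median was -0.10, with 0.02 over all tested. Comparisons within the earlier or the later hybridisations set arrays of different runs beside each other, so they are not within-run values. The earlier hybridisations include all arrays of the 3 g/L and 0.75 g/L groups. There 67 of 68 were lower at 3 g/L, beside 41.9% of all tested (median -0.50, with 0.12 over all tested). Within the later ones, 1 array at 5 g/L lay below the 1 g/L mean in 65 of 68, beside 54.6% of all tested. The median was -0.61, with -0.07 over all tested.

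**Figure D4:**
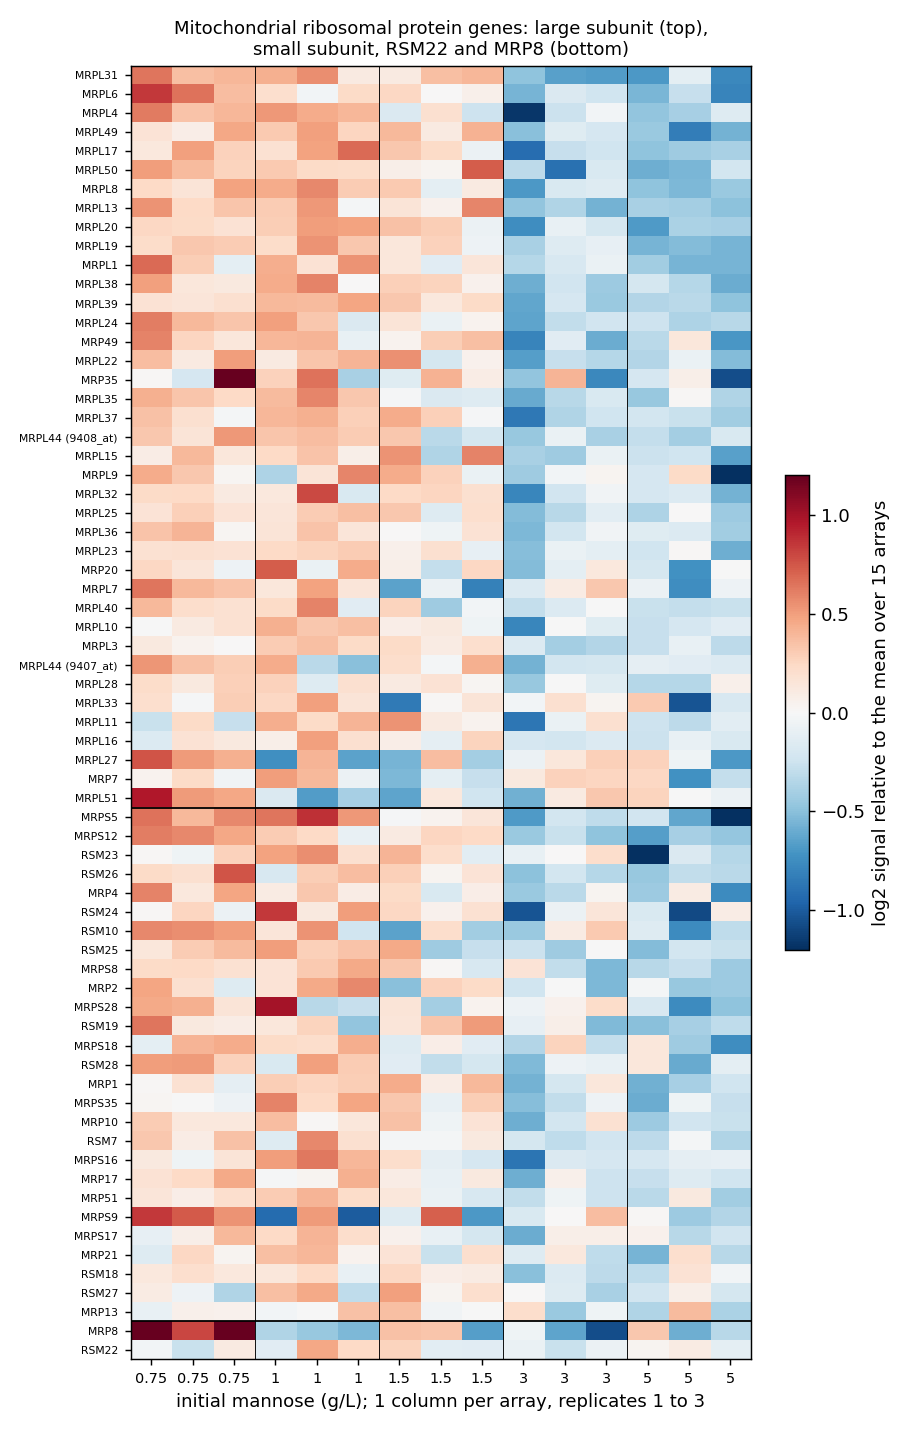
Log2 signal of each of the 68 probe sets relative to its mean over 15 arrays, with 1 column per array in order of initial mannose; the large subunit is above the first horizontal line, the small subunit below it, and MRP8 and RSM22 at the bottom. Most rows change from red to blue between 1.5 and 3 g/L, 3 g/L replicate 1 is the bluest column of its group, and MRPS9 and MRPL27 change within the 1 and 1.5 g/L groups.

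The step from 0.75 to 1 g/L called 6 of 68 probe sets lower at 1 g/L and 0 higher, beside 15.3% and 22.1% of all tested probe sets. At an unadjusted p under 0.05 the members' counts were 7 and 2, beside 1350 and 1886 of all 6956 tested. The median difference was 0.06 against 0.11 over all tested, and 29 of 68 (42.6%) were below 0, near the 43.2% of all tested. The share of members called was below that of all tested probe sets in both directions. After scaling to a common median the members' median became -0.15 and that of all tested probe sets -0.09. Then 52 of 68 members were below 0, and the share of all tested below 0 was not counted for this scaling. Under it 7 members were called lower, beside 22.4% of all tested. After quantile normalization 4 were called lower and 2 higher, beside 18.1% and 19.3% of all tested. Single arrays changed the count. Without 0.75 g/L replicate 1 or replicate 2, or 1 g/L replicate 3, the count of lower members was 2. Of all tested, 12.5%, 12.4% and 13.5% were lower in these fits. Without 3 g/L replicate 2 or 1.5 g/L replicate 3 the count was 3, beside 14.9% and 15.1% of all tested.

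No fluidics run held both concentrations: all 0.75 g/L arrays were in run A, with incomplete fluidics records, and the 1 g/L arrays alone made up run D. For this step mannose and run cannot be told apart, and there is no within-run value.

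MRP8 (YKL142W) had the largest fall among the 6 called at this step. Its signal was 859.1, 471.6 and 627.7 at 0.75 g/L, then 211.3, 197.1 and 186.6 at 1 g/L, a fall by 1.68 ± 0.33 (3.20-fold, adjusted p = 0.00124). At 1.5, 3 and 5 g/L it ranged from 129.8 to 346.1, below all 0.75 g/L arrays. Its slope over all concentrations was -0.37 ± 0.16 and did not pass (adjusted p = 0.104). Its log2 signal correlated at 0.32 with the median of the other members.

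MRPL51 (mL43, YPR100W), a protein known from the mitochondrial ribosome, was 305.9, 223.7 and 217.3 at 0.75 g/L, then 139.6, 98.4 and 118.9 at 1 g/L, without overlap, a fall by 1.06 ± 0.25 (adjusted p = 0.00459). At 5 g/L it was 189.6, 156.3 and 149.8. MRPL51 was the member least like the others, with a correlation of 0.05, followed by MRPL27 at 0.11 and MRPS9 at 0.17.

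MRPS9 (uS9m, YBR146W), the counterpart of bacterial S9, whose tail reaches the peptidyl site, was 193.3, 179.7 and 156.2 at 0.75 g/L. At 1 g/L it was 56.6, 153.7 and 54.0 and at 1.5 g/L 96.9, 176.4 and 66.8. In both groups replicate 2 was about at the level of the 0.75 g/L arrays and the other arrays were far below. The fall from 0.75 to 1 g/L was 1.18 ± 0.38 (adjusted p = 0.0265), and the call was lost in 5 of 23 other settings.

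MRPL27 (mL41, YBR282W) had the same outlying arrays, with 57.9, 128.4 and 61.8 at 1 g/L, then 65.6, 124.6 and 72.6 at 1.5 g/L. At 0.75 g/L it was 163.3, 137.7 and 129.7. The step was -0.89 ± 0.32 (adjusted p = 0.0443). MRPL27, MRPL6 (-0.49 ± 0.18, adjusted p = 0.0452) and MRPS12 (-0.40 ± 0.14, adjusted p = 0.0441) each lost the call in 13 of 23 other settings.

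Any difference among the 5 concentrations was called for 37 of the 68, or 54.4%, beside 46.6% of all tested probe sets. By this count alone the members are close to the background. With the 5 arrays left out whose records show incomplete fluidics, which include all 0.75 g/L arrays, the count was 14, or 20.6%, beside 12.8% of all tested probe sets in the same fit. The smallest adjusted p among members not already named for the other comparisons were those of MRPL39 (0.000343), MRPL13 (0.00163), MRPL35 (mL38, 0.00254) and MRPL17 (mL46, 0.00338). MRPL35 went from 80.4 ± 7.86 (SD, n = 3) at 1 g/L to 55.2 ± 3.46 at 1.5 g/L, with 50.1 ± 9.02 at 5 g/L. MRPL17 was 171 ± 28.9, 140 ± 19.6 and 92.1 ± 3.13 at these concentrations.

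Other proteins of the mitochondrial ribosome, whose symbols the naming rule does not catch, had similar slopes. Of 13 tested, 9 fell with mannose and 0 rose, beside 9.34% of all tested probe sets that fell and 14.3% that rose. The slopes of all 13 were below 0, beside 45.3% of all tested, with a median of -0.28. SWS2, a small subunit protein, averaged 137.4 ± 5.75 (SD, n = 3) on the 0.75 g/L arrays and 74.1 ± 5.09 on the 5 g/L arrays, with a slope of -0.37 ± 0.05 (adjusted p = 0.000141). MNP1, the counterpart of the bacterial stalk protein L7/L12, went from 234.6 ± 22.7 to 134.6 ± 6.39 (slope -0.35 ± 0.06, adjusted p = 0.000414). RML2, the counterpart of bacterial L2, went from 169.1 ± 8.9 to 99.0 ± 11.4 (slope -0.34 ± 0.06, adjusted p = 0.000661).

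Factors that act with the mitochondrial ribosome also fell in part. Of 16 translation and assembly factors 7 fell and 1 rose, beside 9.34% and 14.3% of all tested, with a median of -0.24. The 1 that rose was MDM38, a membrane protein that binds the ribosome (slope 0.21, adjusted p = 0.0388). MEF1, an elongation factor, fell from 189.4 ± 3.58 to 90.8 ± 12.8 between 0.75 and 5 g/L (slope -0.44 ± 0.06, adjusted p = 0.000119). RRF1, the ribosome recycling factor, had a slope of -0.27 ± 0.06 (adjusted p = 0.00365) and AIM23, an initiation factor, of -0.55 ± 0.12 (adjusted p = 0.00447). FMT1, the formyltransferase of the initiator tRNA, was left out by the filter on low signal.

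Translational activators are proteins that help the ribosome translate single mitochondrial messenger RNAs. Of 15 tested, 5 fell and 0 rose, beside 9.34% and 14.3% of all tested probe sets, with a median of -0.11. MSS51, the activator of COX1, went from 364.1 ± 21.9 at 0.75 g/L through 256.6 ± 9.4 at 1.5 g/L to 160.9 ± 32.4 at 5 g/L (slope -0.48 ± 0.06, adjusted p = 3.24e-05). CBP6 and CBP3, which form a complex that acts in the synthesis of cytochrome b, had slopes of -0.51 ± 0.08 and -0.25 ± 0.06 (adjusted p = 0.000297 and 0.0116). SOV1 was left out by the filter.

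Of 13 mitochondrial aminoacyl-tRNA synthetases, the enzymes that charge the tRNAs, 6 fell and 0 rose, with a median of -0.23. Beside them stand 9.34% of all tested probe sets that fell and 14.3% that rose. MSF1, SLM5 and DIA4, which charge phenylalanine, asparagine and serine tRNAs, had slopes of -0.29 ± 0.06, -0.34 ± 0.07 and -0.39 ± 0.08 (adjusted p = 0.002, 0.00226 and 0.0026). MSF1 was near background, with 12.9 ± 1.63 at 5 g/L.

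Genes of the mitochondrial genome and its transcription gave 1 that fell and 0 that rose of 9, with a median of -0.10. The share that fell, 11.1%, was near the 9.34% of all tested probe sets, of which 14.3% rose. RPO41, the mitochondrial RNA polymerase, had a slope of -0.24 ± 0.07 (adjusted p = 0.0273). ABF2, which packages mitochondrial DNA, had -0.16 ± 0.06 (adjusted p = 0.0821) and PIF1, a helicase, 0.15 ± 0.08 (adjusted p = 0.179).

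Among 7 tested probe sets of regulators of respiratory genes 0 passed in the trend in limma, where 9.34% of all tested fell and 14.3% rose. At an unadjusted p under 0.05, 2 of the 7 had slopes below 0 and 0 above, beside 1025 and 1530 of all 6956 tested. HAP5 and HAP2, subunits of the complex that activates respiratory genes, had slopes of -0.19 ± 0.09 and -0.16 ± 0.07, and HAP1, a haem-responsive factor, 0.16 ± 0.08 (adjusted p = 0.122, 0.127 and 0.152). PUF3 gave signals of 1.8 to 6.8 over all arrays, all below background, and was left out by the filter.

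**Figure D5:**
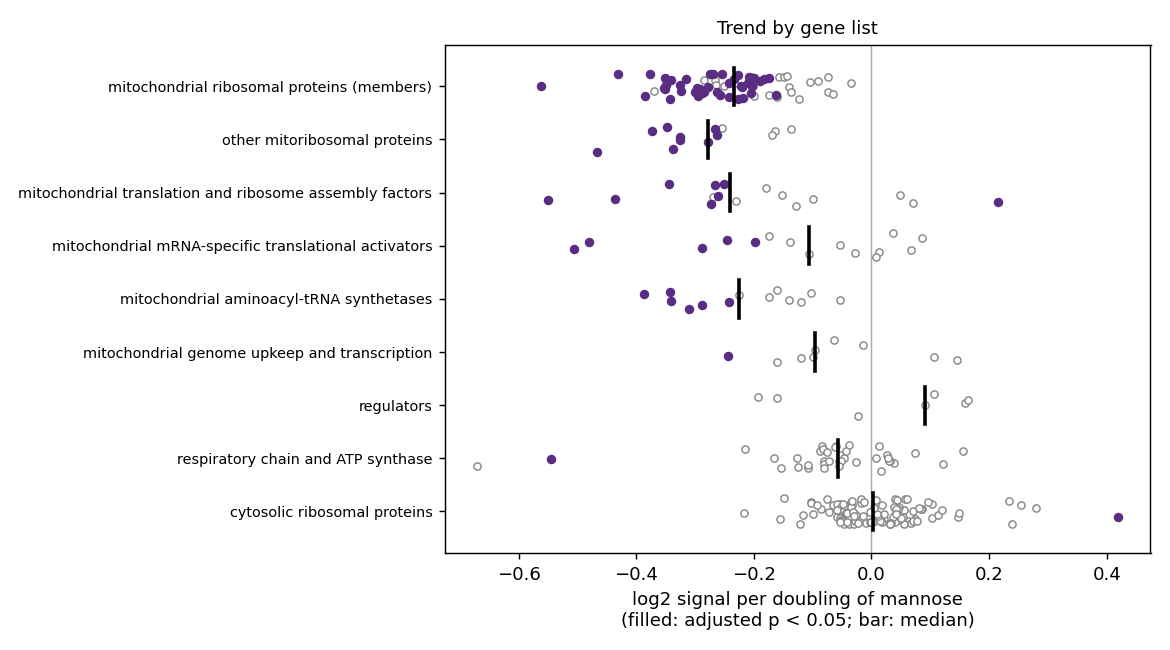
Slope of log2 signal per doubling of initial mannose for each tested probe set of the members and of 8 other gene lists; filled points passed an adjusted p of 0.05 and vertical bars are list medians. The medians are -0.23 for the members, -0.28 for other proteins of the mitochondrial ribosome, -0.06 for the respiratory chain and 0.00 for cytosolic ribosomal proteins.

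The respiratory chain and ATP synthase, whose core subunits the mitochondrial ribosome makes, were counted through their nuclear genes. Of 38 probe sets 1 fell with mannose and 0 rose, beside 9.34% and 14.3% of all tested. The median slope was -0.06, and the difference between the lists was not tested. The 1 that fell was COX5B, the low-oxygen isoform of a cytochrome oxidase subunit. It went from 62.0 ± 7.56 at 0.75 g/L to 22.2 ± 2.62 at 5 g/L (slope -0.54 ± 0.09, adjusted p = 0.000349). CYC7, the low-oxygen isoform of cytochrome c, dropped from 380.3 ± 56 at 0.75 g/L to 53.6 ± 3.08 at 1 g/L and was 66.5 ± 8.44 at 5 g/L, so that its slope did not pass (-0.67 ± 0.25, adjusted p = 0.0611). CYT1, cytochrome c1, had a slope of -0.15 ± 0.06 (adjusted p = 0.0864). In the step from 0.75 to 1 g/L, 8 of the 38 (21.1%) fell and 0 rose, beside 15.3% of all tested that fell and 22.1% that rose.

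The ribosomal proteins of the cytosol are encoded by separate genes. Between 1 and 5 g/L 61 of 103 fell and 0 rose, beside 10.4% of all tested probe sets that fell and 13.5% that rose. The median was -0.57 beside the members' -0.58, and from 1 to 1.5 g/L the medians were -0.17 and -0.18. Between 0.75 and 1 g/L 85 of 103 rose and 0 fell, beside 22.1% of all tested that rose and 15.3% that fell. The median was 0.87 beside the members' 0.06. Over all concentrations the cytosolic proteins therefore had a median slope of 0.00. In the trend 1 of 103 rose and 0 fell, beside 14.3% and 9.34% of all tested. The gene that rose was RPL22B, with a slope of 0.42 ± 0.11 (adjusted p = 0.0157). RPL7B and RPS15 had slopes of 0.25 ± 0.13 and -0.22 ± 0.13 (adjusted p = 0.172 and 0.247). Probe sets of duplicated genes such as RPL7B can share target sequence. These steps share the 1 g/L arrays, so they are not independent of each other.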

How the data were processed

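The values are linear signal intensities, 1 for each of 9335 probe sets of the Affymetrix YG_S98 array, as the authors deposited them in the series' value table. The method that made signals from probes is not stated in the sources used here. The authors also deposited an array experiment record for each array, which was read for other information only (station, hybridisation time, whether fluidics completed), and no date was used. Probe sets were named from GEO's platform annotation, and structural names and locus tags came from a RefSeq gene table. No sequence was used.

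Signals below the 10th percentile (1.5; 13754 values, 211 of them 0) were set to it and log2 transformed. The 60 control probe sets, and probe sets whose mean log2 signal was below the 25th percentile, were removed, and 6956 remained. Differences were fitted with limma 3.58.1 (lmFit, eBayes) in R 4.3.3 to the 15 arrays together. P-values were adjusted over the 6956 by Benjamini and Hochberg's method with a threshold of 0.05. The fits were a slope on log2 mannose, an F-test over 5 concentrations, and contrasts of group means. Signals carry standard deviations and log2 changes standard errors. Signals of different probe sets cannot be set against each other as levels. The background of 13.5 is the 95th percentile of 13 control probe sets.

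The members, the 8 other lists and the tests were chosen with earlier results of these data known. The list of cytosolic ribosomal proteins was corrected after its values were seen, to leave out RPP1, a subunit of RNase P. Comparisons of neighbouring concentrations, within-run differences and the background level were added after the data were seen. Genes were named by rule: up to 6 largest rises and falls that passed in the trend, in 1 against 0.75 g/L and in 5 against 1 g/L, 4 with the smallest adjusted p in the F-test among members not named by these, the 4 highest and 4 lowest mean signals, the 3 most and 3 least like the others, MRP8, and from each other list the 3 genes that ranked first by adjusted p for the trend. MDM38, MRPL37 and MRPL44 were named after their values were seen.

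The alternatives were other scalings, floor, filter and variance model, the replicate number or fluidics run as a block, arrays or a concentration left out, linear mannose, and only the 6 arrays compared. Of 30 correlations between same-numbered arrays of different groups, 4 were above 0.1. Arrays with different numbers were not set beside them, so this count cannot decide whether replicate numbers pair the arrays. On simulated data over 6956 probe sets, the code was tested and recovered for the trend 26 of 67 genes changed 1.2-fold per doubling, 56 of 67 changed 1.5-fold and 64 of 66 changed 2-fold, with 6 false calls. For 5 against 1 g/L it recovered 7 of 67, 36 of 67 and 60 of 66, with 8 false calls. With 3 arrays a group, the number of arrays limits the precision.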

Additional observations from a re-analysis of the deposited data

How the results depend on the processing

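No member passed as higher in the trend under 25 alternative settings or in 5 against 1 g/L under 24, of which 15 in each left out 1 array. The replicate number as a block gave 34 members lower in the trend (7.85% of all tested) and 28 lower in 5 against 1 g/L (9.5%). It gave 4 lower in 1 against 0.75 g/L (14.8% of all tested). Any difference was called for 32 members, or 47.1%, near the 44.1% of all tested. Each of these member counts was within 1.5 times the count reported. Leaving out 1 array gave 29 to 42 members lower in the trend and 21 to 35 in 5 against 1 g/L, lowest without 5 g/L replicate 3 in both. With 1 array left out, 2 to 6 members were lower and 0 to 1 higher in 1 against 0.75 g/L. Of all tested probe sets 866 to 1110 were lower and 1297 to 1588 higher. Any difference was called for 29 to 36 members, beside 2757 to 3270 of all tested. Any difference was called for 56 members after median scaling, beside 48.3% of all tested. It was called for 14 without the arrays with incomplete fluidics, a fit with fewer arrays and no 0.75 g/L group, beside 12.8% of all tested. In 1 against 0.75 g/L, 2 members were lower with only the 6 arrays compared, beside 13.6% of all tested. After quantile normalization 2 were higher, beside 19.3% of all tested. The cause of these moves was not tested.

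Slopes that did not pass changed sign when the 0.75 g/L arrays were absent. Without the arrays with incomplete fluidics they were 0.028 for MRP8, 0.15 for MRPS9, 0.11 for MRPL27, 0.26 for MRPL51 and 0.036 for CYC7. Without the 0.75 g/L arrays they were 0.084 for MRPS9, 0.10 for MRPL27, 0.21 for MRPL51, -0.042 for RPL7B, -0.011 for PIF1 and 0.063 for CYC7. Leaving out 1 array gave slopes of -0.11 to 0.019 for MRPL51, highest without 0.75 g/L replicate 1. Signal near background limits RSM23, RSM22 and MRP35. The 1 against 0.75 g/L comparison could not be made without the arrays with incomplete fluidics.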

Other observations

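The deviation of MRPS9 within the 1 and 1.5 g/L groups was shared by other probe sets. Of the 40 probe sets whose within-group deviations correlated most with those of MRPS9 (0.83 to 0.97 over 15 arrays), 16 had a probe set number within 300 of its own, against 6.63% of all probe sets. MRPL27, on a nearby number, correlated at 0.86. This pattern was noticed in the data, and its cause was not tested.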
